A study of Mus musculus with 150 samples.

Results

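The proteasome subunit genes were followed across 34 tissues of inbred mice and across strains. A probe set belonged to the group if its symbol began with Psma, Psmb, Psmc, Psmd or Psme followed by a digit, with Psmb8 and Psmb9 left out. Of the 53 probe sets that matched, 2 carried the symbols of both Psme2 and Psme2b and were left out. Another 2 named proteins that are not subunits, Psmc3ip, a meiotic recombination factor, and Psme3ip1, and these are given apart. The remaining 49 probe sets stood for 38 genes, of 12422 probe sets and 8251 genes on the arrays. By role they comprised 7 genes of the 20S alpha ring, 7 of the constitutive 20S beta ring, Psmb10, 6 ATPases and 11 non-ATPase subunits of the 19S cap, 3 assembly factors of the 19S cap and 3 activators.

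Total RNA of wild-type inbred mice was hybridized to 150 one-colour Affymetrix arrays, 100 from 24 neural tissues and 50 from 10 body tissues. The neural arrays were 44 of strain 129, 47 of B6, which some labels write BL6, and 9 of DBA. Every body tissue had 1 array of each of 129, AJ, B6, C3H and DBA, and a neural tissue had 3 to 7 arrays that could be used. Retina arrays were all B6, motor cortex had B6 and DBA only, and entorhinal and perirhinal cortex had 129 and DBA only. No treatment or engineered allele is named in any group, the series is titled as adult mouse, and sex and exact age are not given in the labels used here. The titles carry number codes, of which 30 of 107 stand on several arrays, so arrays may share animals or pools. In most comparisons p-values measure the spread between arrays. The contrasts of neural with body tissue and of telencephalon with hindbrain and cord used tissue means, so their p-values measure the spread between tissues. In bulk tissue, fewer cells of a type and less RNA per cell cannot be told apart.

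The 26S proteasome degrades proteins tagged with ubiquitin. Its 20S core is a barrel of alpha and beta rings whose beta subunits Psmb5, Psmb6 and Psmb7 carry the proteolytic sites, and its 19S cap binds, unfolds and feeds in the substrate. Interferon-inducible beta subunits, Psmb8, Psmb9 and Psmb10, replace the constitutive ones in the immunoproteasome of lymphoid cells. The core can also be opened by activators: Psme1 belongs to the 11S regulator PA28 that interferon induces, Psme3 forms the nuclear regulator PA28 gamma, and Psme4 encodes PA200, which is known for its role in sperm development in the mouse.

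Start-site sequence is shown for 3 genes whose differences are described below, the activators Psme1 and Psme4 and the beta subunit Psmb6, from RefSeq on GRCm38.p6, 100 bases before to 20 after the start. They lie on the plus strand at chr11:70525257-70525376 for Psmb6, chr14:55578394-55578513 for Psme1 and chr11:30771675-30771794 for Psme4, and capitals mark the match to a searched motif.
Psmb6: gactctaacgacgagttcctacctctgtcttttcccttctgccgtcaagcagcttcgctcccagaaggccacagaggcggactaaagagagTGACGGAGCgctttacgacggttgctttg
Psme1: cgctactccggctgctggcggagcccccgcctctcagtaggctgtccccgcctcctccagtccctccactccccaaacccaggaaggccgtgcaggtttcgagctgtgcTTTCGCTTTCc
Psme4: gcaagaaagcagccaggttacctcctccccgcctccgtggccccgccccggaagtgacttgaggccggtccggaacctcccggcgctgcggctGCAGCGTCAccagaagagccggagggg
Psmb6 and Psme4 each held the antioxidant response element core TGANNNNGC, which is read by the Nfe2l1 and Nfe2l2 factors. In Psme4 it lay on the reverse strand. Psme1 held the interferon-stimulated response element, also on the reverse strand. Of genes not shown, Psmb10 had 0 motif matches over the same stretch, and Psma6 had 1 at each of its start sites. Promoters of 300 bases were at hand for 32 of the 38 genes, and both strands were searched. TGANNNNGC stood in 17 of them (53.1%), against 45% of all 27025 genes. The interferon-stimulated response element stood in 4 (12.5%), those of Psmb3, Psmd4, Psmd9 and Psme1, against 3.99% of all genes. CCAAT stood in 12 (37.5%), against 41.1%, and the gamma-activated site TTCNNNGAA in 1 (3.12%), that of Psmd2, against 9.55%. These counts describe letters, not binding.

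The deposited values were intensities on a linear scale. They were used as log2 after values below 10.4 had been raised to that floor, and differences are log2 ± SE. A probe set was called if its limma p, adjusted over all probe sets tested, was below 0.05 and the difference reached 1.5-fold. Identical values stood on 2 arrays with different labels, 129 hippocampus replicate 1 and DBA perirhinal cortex replicate 2, so neither was used and 148 arrays were kept. The median intensity of an array was 38.4 to 68.1 and its Gapdh 3' to 5' ratio 0.748 to 1.41. Each of 19 marker genes was highest in a tissue that it marks. Tissues in which none of them peaked, white fat, CA1 and amygdala among them, were not checked in this way. Probe sets that tell strains apart in body arrays put every neural array on the side of its labelled strain. However, 2 of the 8 DBA neural arrays, entorhinal cortex replicate 2 and perirhinal cortex replicate 1, scored 0.61 and 0.60 over 11 DBA-specific probe sets. The other 6 DBA arrays scored 0.85 to 1.55, the 129 arrays at most 0.23 and the B6 arrays at most 0.20. Results that rest on these 2 arrays are given with and without them, a choice made after seeing the data.

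Proteasome subunit transcripts varied little among brain regions and more among body tissues. Across the 41 probe sets tested among both neural and body arrays, mean intensities ran from 42.7 to 1076. The range of a probe set across tissues had a median of 0.68 on the log2 scale over the 21 brain and cord tissues (0.32 to 1.60), 1.52 over the 10 body tissues (0.65 to 3.70) and 1.77 over all 34. Among body tissues the widest range was that of the ATPase Psmc3 (100225_f_at), at 3.70, followed by Psme1 with 3.22 and Psmb10 with 3.12. Over all 34 tissues Psme4 was the widest, at 4.49, between 10.55 in testes and 6.06 in perirhinal cortex. The narrowest over 34 tissues were Psmd3, a scaffold subunit of the cap, with 0.81 and the alpha subunit Psma5 with 0.88.

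**Figure D1:**
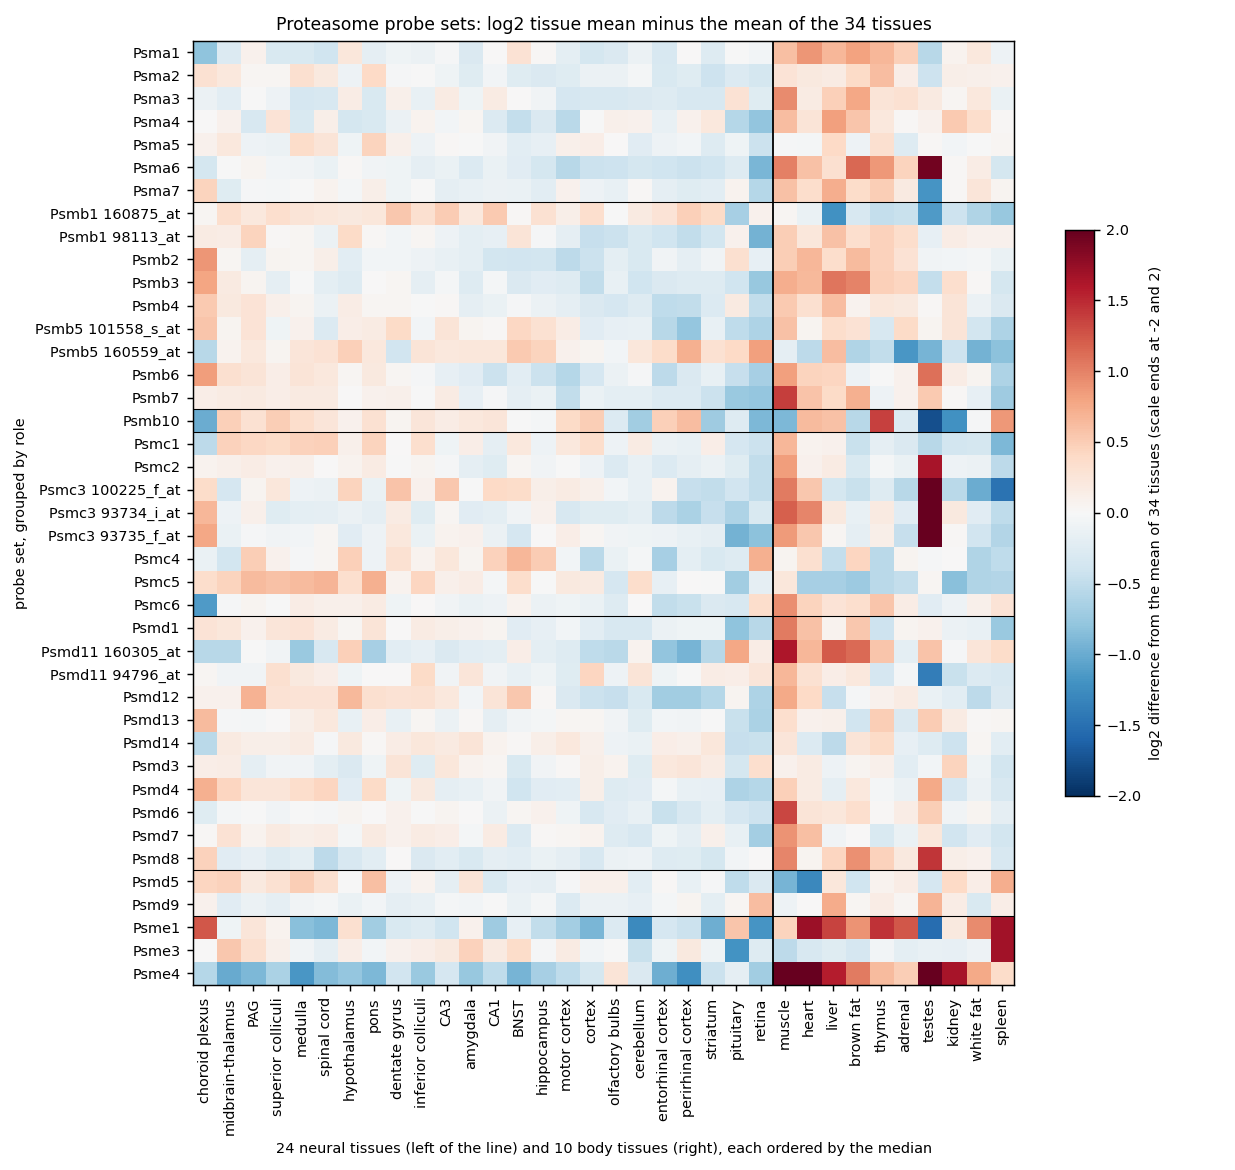
Heat map of the strain-adjusted log2 tissue mean of proteasome probe sets, each relative to its own mean over the 34 tissues, with probe sets in rows by role and tissues in columns, neural tissues left. Muscle and testes show the strongest columns, most brain columns are pale, and retina and spleen are mostly blue (lower).

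The median over the probe sets placed muscle highest, at 0.60 relative to each probe set's mean over the 34 tissues. Heart followed with 0.31, liver with 0.27, brown fat with 0.21 and thymus with 0.15. At the other end stood retina with -0.44, spleen with -0.29, pituitary with -0.27 and striatum with -0.20. Array medians were 0.43 to 0.75 in muscle and 0.25 to 0.38 in heart, so that every muscle array lay above every heart array. The 4 retina arrays lay between -0.48 and -0.34.

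**Figure D2:**
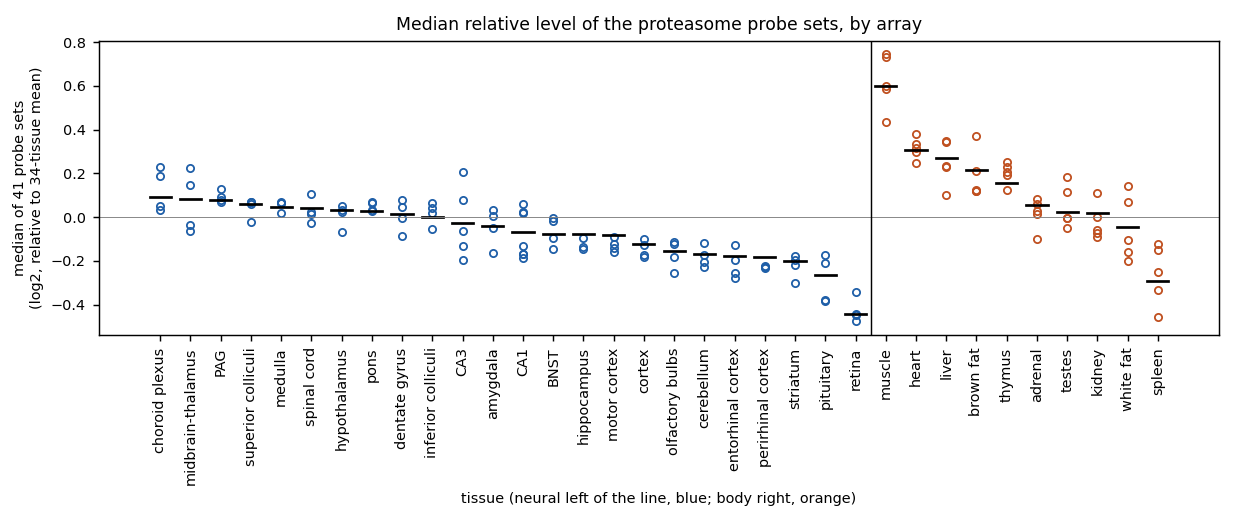
Median over proteasome probe sets of the log2 intensity relative to each probe set's mean over the 34 tissues. Circles are arrays and black bars are the median of the strain-adjusted tissue means, which can lie outside the circles. Muscle (0.60) and heart (0.31) are highest and retina (-0.44) is lowest.

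Neural tissue as a class differed from body tissue at few subunits. Between the 24 neural and the 10 body tissue means, 9 of 42 probe sets were called, 3 higher and 6 lower in neural tissue, where 44.1% of all probe sets tested were called, 21.2% higher and 22.9% lower. The median difference of the 42 was -0.23, against -0.07 over all probe sets tested. The largest difference was at the activator Psme4. Its tissue means were 6.06 to 7.55 (median 6.60) in neural tissues and 7.66 to 10.55 (median 8.59) in body tissues, without overlap, a difference of -2.20 ± 0.239 (limma adjusted p = 1.49e-09). The activator Psme1 had tissue means of 6.88 to 9.40 in neural tissues, against 6.64 to 9.86 in body tissues, and differed by -1.19 ± 0.26 (limma adjusted p = 0.000245). Its ranges overlapped, since testes was the lowest body tissue and choroid plexus the highest neural one.

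The other calls between the classes were spread over the core and the cap. The alpha subunit Psma6 was lower in neural tissue by -0.87 ± 0.15, the cap subunit Psmd11 (160305_at) by -0.88 ± 0.173 and the cap subunit Psmd8 by -0.62 ± 0.126. The ATPase Psmc3 (93734_i_at) was lower by -0.59 ± 0.201 (limma adjusted p = 0.0135). The beta subunit Psmb1 (160875_at) was higher by 0.77 ± 0.119, the catalytic subunit Psmb5 (160559_at) by 0.77 ± 0.145 and the ATPase Psmc5 (160534_at) by 0.68 ± 0.136. The other bright probe set of Psmb1 and of Psmb5 was not called. Psmb1 98113_at had tissue mean intensities of 327 to 849 in neural and 576 to 975 in body tissues. Psmb5 101558_s_at had 303 to 791 in neural and 364 to 849 in body tissues. Psmb10, with 0.18 ± 0.241 (limma adjusted p = 0.536), and Psme3, with 0.06 ± 0.167 (limma adjusted p = 0.781), did not pass. The Psmc3 call was lost when any of 7 single tissues was left out, heart and muscle among them, and the Psmd8 call without brown fat, muscle or testes. Under quantile normalization the Psmc3 and Psmd8 differences were -0.56 and -0.53, under the 1.5-fold threshold.

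In the wider ubiquitin and proteasome list, 27 of 40 listed genes were on the arrays, and 9 were higher and 6 lower in neural tissue. Uchl1, a ubiquitin hydrolase abundant in neurons, was higher by 5.06 ± 0.48, and Ubqln2, which shuttles ubiquitinated proteins to the proteasome, by 1.91 ± 0.203. The inducible subunits Psmb9 and Psmb8 were lower in neural tissue by -2.62 ± 0.437 and -2.07 ± 0.348. Of 11 leukocyte markers 6 were lower in neural tissue and none higher, and of 7 interferon response genes tested 6 were lower. Their part in the Psme1, Psmb8 and Psmb9 differences was not tested.

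Within the nervous system, most calls came from retina, choroid plexus and pituitary. Setting each neural tissue against the average of the remaining 23 gave 63 called pairs of probe set and tissue of 1008 (6.25%), 24 higher and 39 lower, against 19.0% over all probe sets. The 21 brain and cord tissues gave 20 of 882 pairs (2.27%), 7 higher and 13 lower, against 14.3% over all probe sets. The other 43 pairs came from retina, choroid plexus and pituitary. Between telencephalon and hindbrain with spinal cord, 0 of 41 probe sets were called, where 14.6% of all probe sets were called. By unadjusted p below 0.05, 12 of the 41 differed, against 2803 of 7515 probe sets in all. The largest of these differences was at Psmc5, -0.55 ± 0.107 (limma adjusted p = 0.00142), short of 1.5-fold.

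The calls in brain regions fell on few genes. In hypothalamus 3 probe sets were called, all higher, where 13.8% of all probe sets were called. These were Psmd11 (160305_at) by 0.76, Psme1 by 0.71 and the cap subunit Psmd12 by 0.66. In the periaqueductal gray, with 13.8% of all probe sets called, Psmd12 was higher by 0.71 and Psme1 by 0.61. Striatum, with 16.1% of all called, had Psmb10 lower by -0.80, Psme1 by -0.65 and Psmd12 by -0.62. The Psme1 call in the periaqueductal gray was lost without 129 replicate 2 of that tissue, and the Psmd12 call in striatum without B6 replicate 1. Perirhinal cortex, with 17.2%, had Psmb5 (101558_s_at) lower by -0.79, Psmd12 by -0.70 and Psmd11 (160305_at) by -0.68. Without the 2 DBA arrays that stood apart, these were -0.83, -0.88 and -0.95, and without 129 perirhinal cortex replicate 1 the Psmd12 and Psmd11 calls were lost. Psmd12 and Psme1 thus recurred among these regions, in both directions. Cerebellum, with 19.3%, had Psme1 lower by -0.96 and Psmb10 by -0.77.

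Entorhinal cortex, with 11.8% of all probe sets called, had the ATPase Psmc4 lower by -0.78 and Psmd12 by -0.69, or -0.71 and -0.73 without the DBA arrays that stood apart. A single probe set was called in each of 5 further tissues. Psmc4 was higher in the bed nucleus of the stria terminalis by 0.64 (13.5% of all called) and lower in cortex by -0.62 (14%). Psme4 was higher in olfactory bulbs by 0.92 (16.3%). Psmb5 (160559_at) was lower in dentate gyrus by -0.63 (15.8%), and the dim Psmd11 probe set 160304_r_at was lower in spinal cord by -0.85 (18.5%). Of these 5 calls, that of Psme4 held when any 1 array was left out. The others were lost without B6 replicate 2 of the bed nucleus, 129 cortex replicate 1, B6 dentate gyrus replicate 1 and 129 spinal cord replicate 1. The remaining 10 regions had no call among the 42 proteasome probe sets. Of all probe sets, 10.6% were called in amygdala, 13.3% in CA1, 14.3% in CA3, 10.9% in hippocampus, 9.23% in inferior colliculi, 14% in medulla, 13.4% in midbrain with thalamus, 16.1% in motor cortex, 15.5% in pons and 11.9% in superior colliculi.

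Retina stood apart by lower levels of many subunits. In retina 17 of 42 probe sets were called, 4 higher and 13 lower, where 51.7% of all probe sets were called, 29% higher and 22.6% lower. The median difference of the 42 was -0.46, against 0.07 over all probe sets. Lower calls fell on 2 of 7 alpha, 4 of 9 beta, 1 of 8 ATPase and 4 of 12 non-ATPase probe sets, and on Psmb10 and Psme1. The beta subunit Psmb1 (98113_at) had 323, 344, 341 and 301 in retina, against 384 to 910 on the other neural arrays, without overlap, and was lower by -0.87 ± 0.0835 (limma adjusted p = 1.14e-15). The assembly factor Psmd9 ran the other way, with 372, 351, 331 and 413 in retina against 163 to 291 elsewhere, and was higher by 0.70 ± 0.0644 (limma adjusted p = 1.68e-16).

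Psmb10 was lower in retina by -0.98 ± 0.0913 and Psme1 by -0.85 ± 0.102, and both overlapped the other neural arrays. The dim probe set 160304_r_at of Psmd11 was higher by 0.86 ± 0.288, Psmc3 (93735_f_at) lower by -0.79 ± 0.0761 and Psmc4 higher by 0.72 ± 0.187. The Psmd11 probe set was tested through its retina mean, 5.76 against the filter cut of 5.73, so its higher call there was not independent of the filter. Its mean intensity was 44.4 in retina and 44.5 in perirhinal cortex. Psme3 and Psme4 did not pass, at -0.23 and -0.11. Since all retina arrays were B6, tissue and strain cannot be told apart from these arrays alone, and the adjustment uses strain effects seen in other regions. In the pathway list 1 of 26 genes tested was higher and 7 were lower, with Uchl1 lower by -1.77, the ubiquitin ligase Stub1 by -0.92 and the chaperone Hspa8 by -0.85, and the assembly chaperone Psmg3 higher by 1.12. Quantile normalization moved the retina median of all probe sets by -0.10, and 4 of the 17 calls, Psma6, Psmb3, Psmc4 and Psmd4, then fell short of 1.5-fold.

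Choroid plexus showed a different set. In it 11 of 42 probe sets were higher and 6 lower, where 55.2% of all probe sets were called, 23.6% higher and 31.7% lower. Psme1 had 588, 589, 834 and 678 in choroid plexus, against 99.3 to 450 on the other neural arrays. No array overlapped, and the difference was 1.67 ± 0.0993 (limma adjusted p = 6.26e-27). Of the constitutive beta ring, 5 of 9 probe sets were higher, with Psmb2 at 765 to 1070 against 281 to 650 elsewhere (1.04 ± 0.0868), Psmb3 at 0.98 ± 0.106 and Psmb6 at 0.94 ± 0.172. Psmb10 was lower by -1.08 ± 0.0892 and the ATPase Psmc6 by -1.08 ± 0.129. Of 4 interferon response genes tested all 4 were higher in choroid plexus, where the summed level of the list was 1414 to 2060, against 1894 to 3394 in pituitary and 410 to 449 in retina, and their part in the Psme1 difference was not tested. In the pathway list 6 of 26 genes were higher and 8 lower, with Uchl1 lower by -4.57, the deubiquitinase Usp14 by -1.78 and Ubqln2 by -1.75, and Nfe2l2, a factor that induces proteasome genes, higher by 2.58. Quantile normalization moved the choroid plexus median of all probe sets by 0.13 and left 8 higher and 5 lower. Without B6 choroid plexus replicate 2, 12 of the 42 were called.

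In pituitary 2 probe sets were higher and 7 lower, where 48.7% of all were called, 26.8% higher and 21.8% lower. Psme3 had 84.6, 109, 65.7 and 89.5 in pituitary, against 120 to 489 on the other neural arrays, without overlap, and was lower by -1.25 ± 0.164 (limma adjusted p = 1.89e-10). Psmb1 (160875_at) was lower by -0.95 ± 0.0653, Psmc5 by -0.94 ± 0.0856 and Psmc3 (93735_f_at) by -0.89 ± 0.0744. Psmd11 (160305_at) was higher by 1.06 ± 0.115 and Psme1 by 0.94 ± 0.0993. Psme4, at 0.45, and Psmb10, at -0.31, were not called. Of 4 interferon response genes 4 were higher, and in the pathway list 3 of 26 genes were higher and 7 lower, with Nfe2l2 at 1.85, Psmb8 at 1.76, the deubiquitinase Uchl5 at -1.72 and Uchl1 at -1.36.

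Among body tissues, each compared with the mean of the other 9, 91 of 420 pairs of probe set and tissue were called (21.7%), 51 higher and 40 lower, against 47.3% over all probe sets. Muscle held 21, testes 18 and spleen 17 of these calls.

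**Figure D3:**
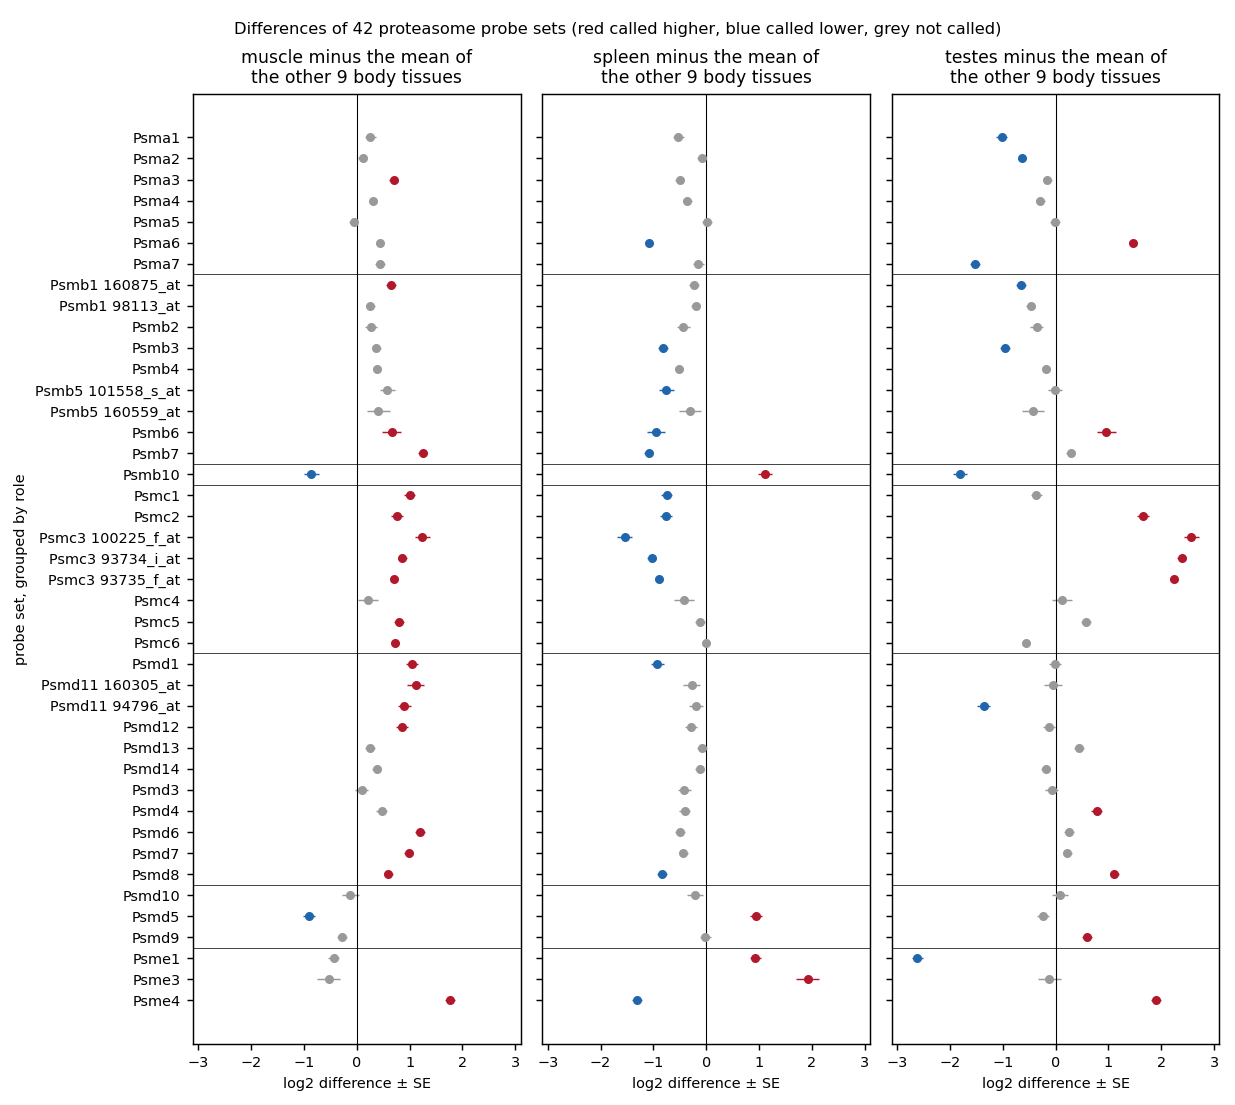
Log2 difference ± SE of 42 proteasome probe sets in muscle, spleen and testes, each against the other 9 body tissues. Red marks called higher, blue called lower and grey not called. Muscle has 19 higher and 2 lower, spleen 4 higher and 13 lower, and testes 10 higher and 8 lower.

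More cap than core probe sets were called higher in muscle. In muscle 19 of 42 probe sets were higher and 2 lower, where 46.7% of all probe sets were called, 22.1% higher and 24.6% lower. The median of the 42 was 0.46, against -0.05 over all. Of the 19S cap, 7 of 8 ATPase and 7 of 11 non-ATPase probe sets were higher, and 3 of the ATPase probe sets are of the single gene Psmc3. Of the 20S core, 3 of 9 constitutive beta and 1 of 7 alpha probe sets were higher. Psme4 had 1356 in 129, 1325 in AJ, 1341 in B6, 1415 in C3H and 1474 in DBA muscle. Those values lay above every other body tissue except testes, and Psme4 was higher by 1.77 ± 0.0904 (limma adjusted p = 1.24e-20).

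The catalytic subunit Psmb7 had 1952, 1531, 1523, 1695 and 1934 in 129, AJ, B6, C3H and DBA muscle, against 335 to 1333 on the other body arrays. It was higher by 1.24 ± 0.0864 (limma adjusted p = 2.66e-16). The cap subunit Psmd6 had 1612, 1582, 1284, 1150 and 885 in the same order of strains, against 397 to 787 elsewhere, and was higher by 1.19 ± 0.0931 (limma adjusted p = 9.6e-15). Neither gene overlapped the other body tissues. The ATPase Psmc3 (100225_f_at) was higher by 1.24 ± 0.138, Psmd11 (160305_at) by 1.12 ± 0.164, Psmd1, a large scaffold of the cap, by 1.05 ± 0.117 and the ATPase Psmc1 by 1.00 ± 0.102.

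The 2 lower probe sets in muscle were Psmb10, by -0.86 ± 0.134, and the assembly factor Psmd5, by -0.90 ± 0.109. Psme1, at -0.44, and Psme3, at -0.54, fell short of 1.5-fold. In the pathway list 9 of 27 genes were higher and 3 lower, with the ubiquitin-conjugating enzymes Ube2b at 2.40 ± 0.1 and Ube2d3 at 2.00 ± 0.101, the ubiquitin ligase Ube3a at 1.15 ± 0.237 and Psmb9 at -1.86 ± 0.322. Of the interferon response genes all 6 tested were lower, with a summed level of 1503 to 2342 in muscle, and of 11 leukocyte markers 3 were lower. Their part in the Psmb10 and Psmb9 differences was not tested. The calls at Psmb1 (160875_at, without C3H muscle) and Psmd8 (without 129, C3H or DBA muscle) rested on single arrays.

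Heart carried fewer of these calls than muscle. In heart 6 probe sets were higher and 1 lower, where 40.8% of all were called, and the median of the 42 was 0.17. Psme4 had 1183, 647, 926, 1149 and 992 in 129, AJ, B6, C3H and DBA heart and was higher by 1.18 ± 0.0904 (limma adjusted p = 8.08e-15). Psme1 had 748 to 1080 (median 978) in heart, against 95.0 to 1120 elsewhere, and was higher by 0.97 ± 0.104. Psmb10 was higher by 0.84 ± 0.134, the ATPase Psmc3 by 0.68 ± 0.138 (100225_f_at) and 0.63 ± 0.0858 (93734_i_at) and the cap subunit Psmd7 by 0.63 ± 0.0872. The Psmc3 calls were each lost without 1 heart array, DBA for 100225_f_at and B6 for 93734_i_at. Under quantile normalization Psmd7, at 0.53, and Psmc3 (93734_i_at), at 0.58, were not called. Psmd5 had 136, 98.0, 120, 107 and 120 in heart and 196, 170, 134, 111 and 143 in muscle, against up to 544 on the other body arrays, and was lower in heart by -1.30 ± 0.109 (limma adjusted p = 1.28e-13). The sign of the Psmb10 difference thus was positive in heart and negative in muscle, which was not tested as a contrast of its own.

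With heart and muscle joined against the other 8 body tissues, 13 probe sets were higher and 1 lower, where 44.6% of all were called. Psme4 was higher by 1.66, Psmc3 (100225_f_at) by 1.08, Psmd7 by 0.91, Psmd1 by 0.90 and Psmb7 by 0.89, and Psmd5 was lower by -1.24. In the pathway list 7 of 27 genes were higher and 3 lower, with Ube2b at 2.07, Ube2d3 at 1.65, Nfe2l1, a factor that induces proteasome genes, at 1.15 and Psmb9 at -1.56.

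Psme3, Psme1, Psmb10 and Psmd5 were higher in spleen, and the share of proteasome probe sets called lower was near that of all probe sets. In spleen 4 of 42 probe sets were higher and 13 lower, where 57.6% of all probe sets were called, 24.8% higher and 32.8% lower. The median of the 42 was -0.41, against -0.17 over all. Psme3 had 885 in 129, 736 in AJ, 444 in B6, 823 in C3H and 695 in DBA spleen, against 82.3 to 504 (median 193) on the other body arrays. All but the B6 array lay above the other tissues, and the difference was 1.92 ± 0.218 (limma adjusted p = 2.71e-10). Psmb10 was higher by 1.10 ± 0.134, Psmd5 by 0.94 ± 0.109 and Psme1 by 0.93 ± 0.104.

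Lower calls in spleen fell on 5 of 8 ATPase, 4 of 9 constitutive beta, 2 of 11 non-ATPase and 1 of 7 alpha probe sets and on Psme4. Psmb7 had 335 to 458 in spleen, against 497 to 1952 on the other body arrays, and was lower by -1.09 ± 0.0864. Psma6 had 670 to 789 in spleen, against 848 to 4006 elsewhere, and was lower by -1.08 ± 0.0705. Psmc3 (100225_f_at) had 37.6 to 44.8, against 48.1 to 662, and was lower by -1.55 ± 0.138. None of these 3 probe sets overlapped the other tissues. Psme4 was lower by -1.31 ± 0.0904 (limma adjusted p = 1.39e-16).

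Thymus shared the higher Psmb10 and Psme1 but few of the lower calls. In thymus 2 probe sets were higher and 1 lower, where 52.1% of all were called. Psmb10 had 664, 864, 593, 770 and 791 in 129, AJ, B6, C3H and DBA thymus, against 63.7 to 730 on the other body arrays. The ranges overlapped, with the thymus median of 770 above every other array, and the difference was 1.66 ± 0.134 (limma adjusted p = 1.93e-14). Psme1 was higher by 0.67 ± 0.104 and Psme4 lower by -1.02 ± 0.0904. Psme3, with 166 to 275 in thymus, was not called (-0.02 ± 0.218, limma adjusted p = 0.943).

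Spleen and thymus together, against the other 8 body tissues, had 4 higher and 7 lower probe sets, where 57.9% of all were called. Psmb10 was higher by 1.55, Psme3 by 1.07 and Psme1 by 0.90, and Psme4 was lower by -1.31, Psmc3 (100225_f_at) by -0.98 and Psmb7 by -0.84. Under quantile normalization there were 5 higher and 4 lower, the difference of Psmb7 then being -0.58, just short of 1.5-fold, and the Psmb6 call was lost without C3H spleen. In the pathway list 4 of 27 genes were higher and 4 lower, with Psmb9 at 3.96, Psmb8 at 3.21, Uchl1 at -1.71 and Nfe2l1 at -1.20. Leukocyte markers were summed at 16813 to 22868 in spleen and 14456 to 16987 in thymus, against 494 to 821 in testes and 2250 to 9136 in white fat, and 10 of 11 were higher. All 6 interferon response genes tested and all 8 genes of dividing cells tested were also higher. No leukocyte marker lay at the floor on all arrays of spleen or thymus. Their part in the proteasome differences was not tested.

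**Figure D4:**
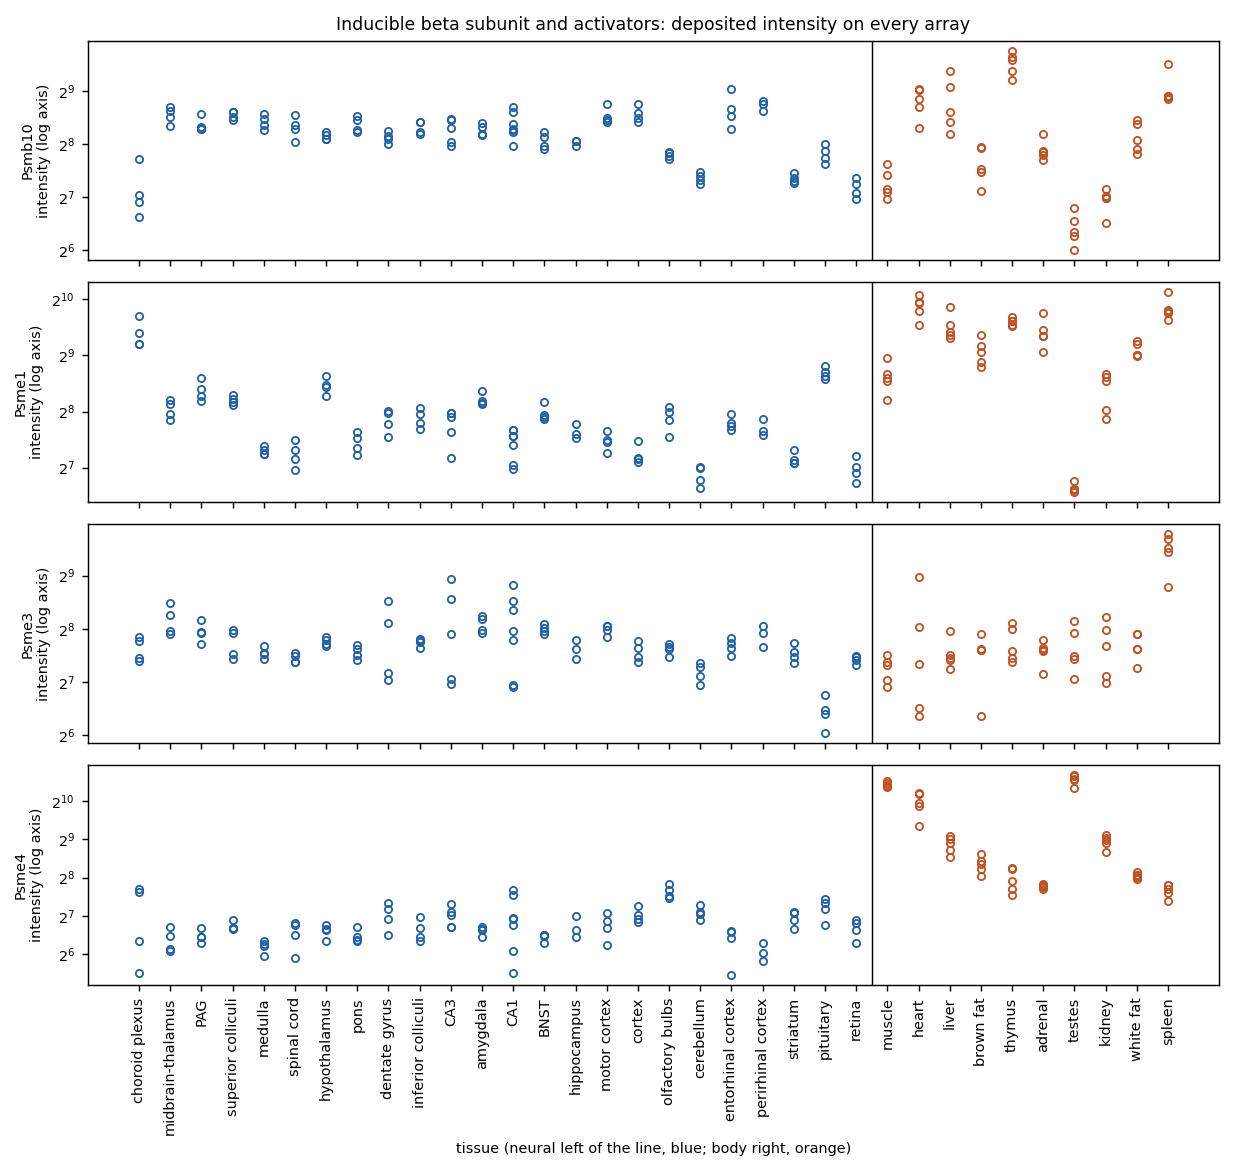
Intensity of Psmb10, Psme1, Psme3 and Psme4 on every array by tissue, on a log axis, neural tissues left. Psmb10 peaks in thymus (593 to 864), Psme3 in spleen (444 to 885) and Psme4 in testes and muscle, and testes holds the lowest Psme1 (95.0 to 109).

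Testes showed the largest differences of the group. In testes 10 of 42 probe sets were higher and 8 lower, where 63.7% of all probe sets were called, 26.6% higher and 37.1% lower. Psme1 had 95.0, 98.6, 109, 96.6 and 98.6 in 129, AJ, B6, C3H and DBA testes, against 234 to 1120 on the other body arrays. No array overlapped, and the difference was -2.62 ± 0.104 (limma adjusted p = 3.28e-25). The ATPase Psmc3 (93734_i_at) had 1266, 1664, 1344, 1705 and 1753, against 146 to 656 elsewhere, and was higher by 2.38 ± 0.0858 (limma adjusted p = 1.01e-26). Its other probe sets moved alike, by 2.57 ± 0.138 and 2.23 ± 0.0696. Psme4 had 1630, 1507, 1284, 1599 and 1500 and was higher by 1.90 ± 0.0904 (limma adjusted p = 2e-22).

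In the alpha ring and among the non-ATPase subunits of testes, members went in opposite directions. Of the alpha ring, Psma6 was higher by 1.46 ± 0.0705, with 4006, 3742, 2694, 3839 and 3832, while Psma7 was lower by -1.52 ± 0.0978, with 208, 148, 240, 147 and 231, and neither overlapped the other body arrays. Of the 8 ATPase probe sets 4 were higher and none lower, with Psmc2 at 1.65 ± 0.109. Among non-ATPase subunits Psmd8 was higher by 1.11 ± 0.0909 and Psmd11 (94796_at) lower by -1.36 ± 0.124. Psmb10 had 110, 81.4, 63.7, 76.7 and 93.8 and was lower by -1.81 ± 0.134 (limma adjusted p = 5.07e-16), and Psme3 was not called (-0.12 ± 0.218).

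In the pathway list, testes had 6 of 27 genes higher and 12 lower. Uchl1 was higher by 3.11 ± 0.223 and the chaperone Bag6 by 2.66 ± 0.123, Psmb8 was lower by -3.04 ± 0.165 and Psmb9 lay at the floor on every testes array. Male germ cell markers were summed at 38650 to 65004 in testes, against at most 2160 on any other body array, and 11 of 11 tested were higher with none at the floor. Markers dim in the other tissues enter the test through testes, so this count only describes the tissue. Of 6 interferon response genes tested 6 were lower, with a summed level of 324 to 621, and of 11 leukocyte markers 7 were lower. Their part in the proteasome differences was not tested. Psmc3ip, matched by the name pattern alone, was higher by 4.88 ± 0.202, and Psme3ip1 by 0.62 ± 0.0958. Psmc3ip had 370 to 440 in testes and at most 28.9 on any other body array, so it passed the filter through testes alone. Its direction was thus set by the filter, and its size depends on the floor. The Psmd9 call in testes, 0.59, was lost in 8 of 50 refits without 1 array.

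The remaining body tissues had 7 or fewer calls. Liver had 6 higher and 1 lower, where 53.9% of all were called: Psmb5 (160559_at) by 1.29, Psmb10 by 0.79, Psmb3 by 0.76, Psmd11 (160305_at) by 0.67, Psmd9 by 0.65 and Psma7 by 0.60, and Psmb1 (160875_at) by -0.74. The other bright Psmb1 probe set, 98113_at, was not called in liver and had its highest tissue mean intensity there, 975. Quantile normalization moved the liver median of all probe sets by 0.17, and the Psmb3 difference then was 0.29, the Psma7 difference 0.32 and the Psmd9 difference 0.54, none of them called. The Psmd9 call was also lost without DBA liver. Of the 7 liver calls 5 were at subunits of the core, and the direction was mixed. Of 6 interferon response genes tested 3 were higher in liver and none lower, with a summed level of 6233 to 8233, against 6267 to 8596 in spleen, and their part in the Psmb10 difference was not tested. Kidney had 1 higher and 4 lower, where 41.6% of all were called. Psmb10 was lower by -1.21, Psmd11 (160305_at) by -0.72, Psme1 by -0.71 and Psma6 by -0.65, and the Psmd5 call, 0.59, was lost in 17 of 50 refits without 1 array. Adrenal had 5 lower and none higher (31.9% of all called), with Psme4 at -1.18, Psmd11 (160305_at) at -0.91, Psmc3 at -0.76 and -0.71 and Psmb5 (160559_at) at -0.69, the last not called without C3H adrenal. White fat had 4 lower and none higher (42%), with Psmc3 at -1.01, -0.72 and -0.67 and Psme4 at -0.88. Lower Psme4 and Psmc3 were thus called in both adrenal and white fat, against means that include testes, muscle and heart. Median Psme4 was 1507 in testes, 1356 in muscle and 992 in heart. It was 222 in adrenal, 266 in white fat, 210 in spleen, 240 in thymus, 329 in brown fat, 481 in liver and 501 in kidney. Median Psmc3 (93734_i_at) was 1664 in testes, 570 in muscle and 498.5 in heart, and 186 to 300 in the other body tissues. Brown fat had Psmb3 higher by 0.67, Psmc4 by 0.62 and Psma6 by 0.59 and Psmc3 (93734_i_at) lower by -0.63 (43%). Of these, Psmb3 and Psma6 were not called in brown fat under quantile normalization, at 0.45 and 0.28. Psmc4 was dim, with a mean intensity of 57.3 in brown fat and at most 50.4 in any other body tissue. It was tested among body tissues through brown fat alone, so its higher call there was not independent of the filter.

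Strain differences were small beside tissue differences. Between 129 and B6 in the neural tissues that had both, 0 of 42 probe sets were called, where 2.46% of all were called. By unadjusted p below 0.05 there were 11 of the 42, against 2669 of 8092 in all. In body tissues 129 against B6 (3.58% of all called), AJ against B6 (7.81%), C3H against B6 (1.68%) and DBA against B6 (1.92%) each had 0 calls among the 42. At an unadjusted p below 0.05 these comparisons had 15, 18, 7 and 7 of the 42. Of all probe sets tested in body tissue there were 2018, 2843, 1614 and 1491, and no share is drawn from these counts here. The F test over the 5 strains, by adjusted p alone, called 10 of 42 (23.8%), against 13.5% over all probe sets.

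The 10 probe sets of the F test were Psma1, Psma2, Psma4, Psmb3, Psmb4, Psmb5, Psmb6, Psmc2, Psmc6 and Psmd4. AJ had the highest mean in 6 of them and B6 the lowest in 6, and only Psmb6 had a range over strains of at least 1.5-fold, at 0.88 on the log2 scale. The alpha subunit Psma4 (limma adjusted p = 0.000587) was highest in AJ in 9 of 10 body tissues, all but heart. In kidney it had 1074 in AJ, against 754 in DBA, 681 in C3H, 649 in B6 and 555 in 129. The AJ array also had a lower median intensity than the B6 array in every body tissue but heart. In kidney these medians were 44.6 and 53.0, and in heart 51.5 and 50.7. The part of array intensity in the strain order of Psma4 was not tested. The ubiquitin receptor Psmd4 was lowest in B6 in 8 of 10 tissues, and Psmb6 (limma adjusted p = 0.00238) was lowest in DBA in 8 of 10. Under quantile normalization the F test called 5 of the 42.

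DBA had lower Psmb6 in most of the forebrain tissues. In the 5 forebrain tissues with DBA arrays, DBA was compared with the mean of 129 and B6, and 0 of 41 probe sets were higher and 2 lower, where 1.99% of all probe sets were called. Psmb6, the catalytic subunit that the inducible Psmb9 replaces, had 109 and 116 in DBA CA1, against 506 and 472 in 129 CA1 and 559, 391 and 418 in B6 CA1. In CA3 it had 135 in DBA, against 616 and 462 in 129 and 487 and 514 in B6, and in motor cortex 127 and 196 in DBA, against 401 and 354 in B6. DBA lay below every other array in these 3 tissues.

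In entorhinal cortex Psmb6 had 62.8 and 473 in DBA, against 432 and 323 in 129, and in perirhinal cortex 297 in DBA, against 373 and 331 in 129. The array with 473 and the array with 297 were the ones that lay between DBA and 129 on the strain-specific probe sets. The difference was -1.44 ± 0.25 (limma adjusted p = 0.000697), a level 2.71-fold lower in DBA. Without those 2 arrays it was -1.94 (limma adjusted p = 2.46e-09). In body tissues Psmb6 had 182 in DBA thymus, against 437 to 666 in the other 4 strains, and 184 in DBA brown fat, against 308 to 736. In liver DBA had 785, against 393 to 848, so the direction did not hold in every tissue. The difference between DBA and B6 over the 10 body tissues was -0.49 (limma adjusted p = 0.109), not called.

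**Figure D5:**
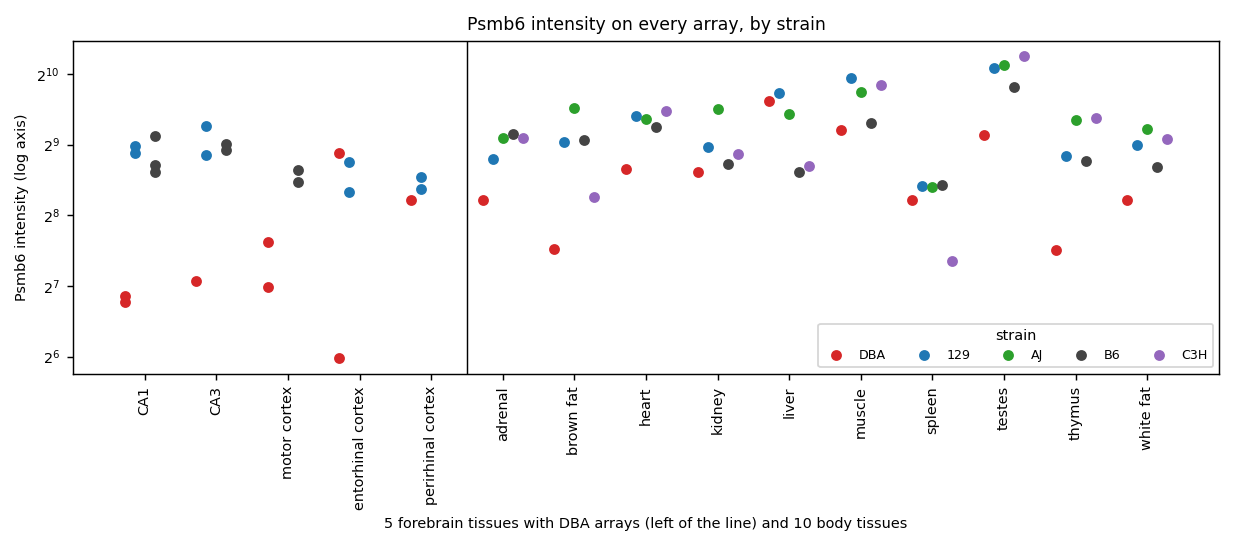
Intensity of Psmb6 on every array of the 5 forebrain and 10 body tissues that had DBA arrays, by strain, on a log axis, DBA first. DBA arrays lie lowest in CA1, CA3 and motor cortex (109 to 196), and in entorhinal and perirhinal cortex the arrays at 473 and 297 lie among or near the 129 arrays.

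The other DBA call was Psme4. It had 45.3 and 68.0 in DBA CA1, against 204 and 120 in 129 CA1 and 123, 188 and 109 in B6 CA1, and in motor cortex 103 and 75.6 in DBA, against 116 and 135 in B6. In CA3 it had 105 in DBA, against 136 and 105 in 129 and 160 and 131 in B6. It was lower by -0.71 ± 0.171 (limma adjusted p = 0.0144), or by -0.88 (limma adjusted p = 0.00264) without the DBA arrays that stood apart, and the call was lost without DBA CA1 replicate 1. In body tissues Psme4 differed between DBA and B6 by 0.16, not called. None of the 25 pathway genes tested was called between DBA and the other strains in these tissues.

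The interaction test asked whether 129 minus B6 differed between neural and body tissues, and 7 of 43 probe sets passed by adjusted p alone, where 16.6% of all did. The largest were Psmd4, -0.52 ± 0.115, with -0.07 in neural and 0.45 in body tissues, and Psmb5 (101558_s_at), 0.48 ± 0.125, with 0.05 in neural and -0.43 in body tissues. Psma2, with -0.33 ± 0.0576, and Psmd14, the deubiquitinase of the cap, with -0.28 ± 0.0703, followed.

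The members followed one another unevenly across the 34 tissues. Over 820 pairs of probe sets the median Pearson correlation of tissue means was 0.20, and 69.1% of pairs were positive. With the median of the other members, 20 of 41 probe sets correlated above 0.5, led by Psmb7 at 0.92, Psmd1 at 0.81 and Psmd6 at 0.80. Below 0 were 6 probe sets, Psmb5 (160559_at), Psmd5, Psme3, Psmb1 (160875_at), Psmd9 and Psmb10. All tissue means share their arrays and scaling, so these values describe the table and carry no p.

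Probe sets of a single gene did not always agree. The 3 Psmc3 probe sets correlated at 0.77, 0.81 and 0.91 over 34 tissues. The 2 bright probe sets of Psmb1 correlated at -0.40, those of Psmb5 at -0.20 and those of Psmd11 at 0.03, so each call on these genes holds for the probe set named. In pituitary, for example, Psmd11 was called at 160305_at alone.

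Outside the group, the genes whose tissue means were most like the median of the members were Mrpl13 (0.84), Atp5j (0.84), Mrps15 (0.84), Ndufb5 (0.84) and Mrpl15 (0.82), by Pearson correlation over 34 tissues. They encode proteins of the mitochondrial ribosome, ATP synthase and the respiratory chain. Of the 49 probe sets, 7 stayed too dim to be tested between neural and body tissue: a probe set each of Psmb1, Psmc5, Psmd11, Psme1 and Psmd2 and 2 of Psmb4. The Psmd11 one was tested among neural tissues only. Psmd2, a scaffold of the cap, had no other probe set and was not tested.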

How the data were processed

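RNA abundance in 150 tissue samples was read as 1 intensity per probe set and array, as deposited by the authors. The deposited intensity is on a linear scale, with 5.97% of values below 0; the software that made it is not given in the sources used here. Symbols came from the platform annotation, where 10833 of 12422 non-control probe sets carried 1 symbol, 396 several and 1193 none. No further scaling was applied. Values under the 20th percentile, 10.4, were raised to that floor and expressed as log2. Testing in a fit required a mean above 5.73, the overall log2 median, in some tissue of it, with strain adjusted over the arrays of that fit alone. The tests came from limma 3.58.1 (R 4.3.3; lmFit and eBayes with a trend), with Benjamini-Hochberg adjustment over all probe sets tested, and were tested on simulated data. The contrasts of neural with body tissue and of telencephalon with hindbrain and cord used tissue means; other tissue contrasts used arrays with strain as a term, and strain contrasts used tissue as a term. The number of arrays limits the precision.

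In a comparison with at most 8 calls all were named, otherwise the 6 largest differences. Psmb10, Psme1, Psme3, Psme4, the roles and up to 4 called pathway genes were added in some comparisons, though not all of them in each. The 5 genes most like the median were also given. Members, lists and tests were chosen with earlier results of these data known. Alternatives varied the floor, the filter, the fold threshold, the scaling, the probe set per gene, the arrays and tissues kept, the Gapdh 3' to 5' ratio and the title code. The strain check and the fits without 2 DBA arrays were chosen after seeing the data.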

Additional observations from a re-analysis of the deposited data

Results flagged for a closer look

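For Psmb6, Psmb10, the activators and the median of the members, 192 groups of 4 to 7 arrays of a tissue were examined. In 16 of them a single array lay far from the others of its tissue. Chance would give about 1 in 20 if the arrays of a group were alike. Most groups mix strains, so that rate does not hold for them, and the part of strain was not tested. Values are log2 intensities, each followed by the nearest of the others. For Psmb6 these were DBA CA3 with 7.07 (nearest 8.85), DBA heart with 8.66 (nearest 9.25), C3H spleen with 7.35 (nearest 8.22), B6 inferior colliculi replicate 2 with 8.87 (nearest 8.98), B6 periaqueductal gray replicate 2 with 8.97 (nearest 9.31) and B6 striatum replicate 1 with 8.51 (nearest 8.90). For Psmb10 these were C3H kidney with 6.51 (nearest 6.98), 129 periaqueductal gray replicate 2 with 8.57 (nearest 8.31) and B6 spleen with 9.51 (nearest 8.91).

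Among the activators, Psme1 was high in 129 cortex replicate 1 with 7.47 (nearest 7.16) and in B6 testes with 6.77 (nearest 6.62). Psme3 was low in 129 brown fat with 6.37 (nearest 7.59). Psme4 was low in DBA entorhinal cortex replicate 1 with 5.46 (nearest 6.42) and high in B6 superior colliculi replicate 2 with 6.89 (nearest 6.69). The median of the members, relative to each probe set's mean over 34 tissues, was 0.0179 in 129 medulla replicate 1 (nearest 0.0624) and -0.0236 in 129 superior colliculi replicate 1 (nearest 0.0583).

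The difference between 129 and B6 itself differed between neural and body tissue at 7 of 43 probe sets (limma interaction, adjusted p below 0.05). That share is near the 16.6% of all probe sets that passed, so the count does not set the group apart. The interaction was -0.33 for Psma2 (-0.02 in neural and 0.31 in body tissues), -0.18 for Psma5 (0.03 and 0.21), -0.25 for Psmb1 160875_at (-0.03 and 0.22) and 0.48 for Psmb5 101558_s_at (0.05 and -0.43). It was -0.20 for Psmc3 93735_f_at (-0.06 and 0.15), -0.28 for Psmd14 (-0.01 and 0.27) and -0.52 for Psmd4 (-0.07 and 0.45). Psma5, Psmb1 and Psmc3 did not pass under quantile normalization.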

How the results depend on the processing

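No called difference changed sign under any alternative run. At a 2-fold threshold the calls were 2 for neural against body tissue, 6 for the neural tissues, 33 for the body tissues, 3 for spleen and thymus, 3 for heart and muscle and 1 for DBA in forebrain. Of single tissues, the 17 retina calls and the 20 in the 21 brain and cord tissues both came to 0, while choroid plexus had 4 of 17, muscle 6 of 21 and spleen 7 of 17. With 1 probe set per gene the 21 brain and cord tissues had 13 calls. Without retina, pituitary and choroid plexus the neural tissues had 20 calls, and without a filter on dim probe sets telencephalon had 1 and AJ against B6 in body tissue 1. Quantile normalization left 5 calls in the F test over strains and 4 in the interaction, and kept 159 of 195 called values. Of the called values, 192 of 195 held with the floor at the 40th percentile, 196 of 197 without the filter, 156 of 156 with 1 probe set per gene, 73 of 74 with the identical arrays kept, 183 of 188 with the Gapdh ratio as a term, and 72 of 72 without the 2 DBA arrays that stood apart. The replicate block by title code gave 63 calls over the neural tissues and kept 186 of 188 called values; whether the codes pair samples is not stated in the labels, so no other pairing was used.

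Leaving out 1 tissue at a time gave 7 (without muscle) to 10 calls for neural against body tissue and 0 to 1 (without cerebellum) for telencephalon. Leaving out 1 array at a time gave 58 to 67 calls over the neural tissues, 89 to 94 over the body tissues, 11 to 12 for spleen and thymus, 13 to 14 for heart and muscle, 17 to 19 for testes, 9 to 12 in the F test, 0 for 129 against B6 in neural tissue, 0 to 1 (without DBA liver) for DBA against B6 in body tissue, and 1 (without DBA CA1 replicate 1) to 2 for DBA in forebrain. Precision is limited by 3 to 7 arrays per tissue, by probe sets of which 7 were too dim to be tested between neural and body tissue, and by strain and tissue being inseparable in retina.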
